A study of Mus musculus with 6 samples.

Results

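The regions described here are 388 stretches of open chromatin that were high in 2 libraries of the Ogtflox+/Y genotype, replicates 2 and 6, and low in the remaining Ogtflox+/Y library, replicate 4. They were picked out of 189575 regions on chromosomes 1 to 19, from 193148 regions in all. They were chosen by the measured read counts themselves. Levels are CPM, the reads of a region per 1000000 reads that fell in any region of that library. A region was taken when its level in replicate 2 and in replicate 6 was at least 2 CPM, at least 3 times the level in replicate 4 and at least 3 times the mean of the 3 Ogtflox-/Y libraries. The height of replicates 2 and 6, the low level of replicate 4 and the low mean of Ogtflox-/Y are therefore properties of the choice and are given as a description, without a test.

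Chromatin accessibility was measured by ATAC-seq in nuclei sorted from the mouse ventral tegmental area, a midbrain region rich in dopaminergic neurons. The first group was Ogtflox+/Y, read here as the genotype with the floxed Ogt allele and called knockdown in the series' design text, with replicates 2, 4 and 6. The second was Ogtflox-/Y, read here as the genotype without that allele and used as the control, with replicates 1, 3 and 5. Both genotypes were injected with AAV-TH-Cre, a virus carrying Cre recombinase under a name that refers to tyrosine hydroxylase, and with AAV-DIO-H2B-EGFP, whose nuclear green fluorescent protein is made after Cre acts. The control libraries thus carry Cre and the reporter too, and the sorted EGFP+ nuclei are only as specific as the cells that expressed Cre. The labels call the cells dopaminergic neuronal cells and name no animal for any library, so the spread between replicates may be technical. Age is not given in the labels.

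The genotype label of replicate 2 reads Ogtflox+/Y, while its title names Ogtflox-/Y. Groups follow the genotype label here, and results that rest on replicate 2 are also given without it or with the grouping by title. Reads in regions numbered 12698758 to 15795872 in the Ogtflox+/Y libraries and 13120042 to 24440507 in the Ogtflox-/Y libraries. They made up 31.0 to 37.0% of the library totals in Ogtflox+/Y and 36.6 to 38.2% in Ogtflox-/Y. A level of 3 reads corresponded to 0.190 to 0.236 CPM in Ogtflox+/Y and to 0.123 to 0.229 CPM in Ogtflox-/Y, so levels near these values rest on counting error. No pair of libraries within a group agreed within sampling noise.

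As background, ATAC-seq reports DNA that a transposase can reach, which in a nucleus is mostly promoters and enhancers in use in that cell type. Ogt is the gene of O-GlcNAc transferase, which adds a single sugar to serines and threonines of intracellular proteins. Astrocytes are glial cells that clear glutamate and potassium around neurons. Gfap encodes their intermediate filament protein, Aqp4 the water channel of their endfeet, and Sox9 a transcription factor of the astrocyte lineage. In a sorted population, a larger share of nuclei of one type and more accessibility per nucleus cannot be told apart.

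Promoters that overlap a member region are shown first, because they tie a member to the start of a gene. Of the protein-coding promoters of RefSeq on build GRCm38.p6 (mm10), 12 overlapped a member. The 6 whose member had the highest level in the lower of replicates 2 and 6 are printed as the 250 bases before the start site, 5′ to 3′ along the strand of the gene. Other than Gfap, these genes were chosen after their values were seen. Capitals mark matches on either strand to 5 motifs. These were the NFI half-site TTGGCA, the STAT motif TTCNNNGAA, the AP-1 motif TGANTCA and the SOX motifs ACAAAG and ACAATG.
Arhgef19: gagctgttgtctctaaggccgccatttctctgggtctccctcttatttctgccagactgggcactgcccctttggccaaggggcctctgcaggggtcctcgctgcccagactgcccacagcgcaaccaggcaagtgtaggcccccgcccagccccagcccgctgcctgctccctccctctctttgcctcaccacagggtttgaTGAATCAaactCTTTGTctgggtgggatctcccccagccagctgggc
Gfap: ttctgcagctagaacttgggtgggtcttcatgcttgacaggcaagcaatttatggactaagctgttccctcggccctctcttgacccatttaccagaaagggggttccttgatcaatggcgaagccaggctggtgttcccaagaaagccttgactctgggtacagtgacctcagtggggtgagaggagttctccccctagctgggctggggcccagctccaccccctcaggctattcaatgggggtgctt
Ccdc190: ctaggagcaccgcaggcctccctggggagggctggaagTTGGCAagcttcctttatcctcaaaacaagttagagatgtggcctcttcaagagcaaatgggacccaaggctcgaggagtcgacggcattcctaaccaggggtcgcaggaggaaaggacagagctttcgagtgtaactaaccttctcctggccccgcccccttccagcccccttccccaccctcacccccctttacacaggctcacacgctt
Aldh3b1: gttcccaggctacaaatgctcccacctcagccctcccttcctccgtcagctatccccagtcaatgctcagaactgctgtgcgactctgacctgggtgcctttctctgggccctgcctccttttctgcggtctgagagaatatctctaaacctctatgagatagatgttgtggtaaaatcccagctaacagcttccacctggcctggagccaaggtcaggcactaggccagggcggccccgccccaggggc
Lcat: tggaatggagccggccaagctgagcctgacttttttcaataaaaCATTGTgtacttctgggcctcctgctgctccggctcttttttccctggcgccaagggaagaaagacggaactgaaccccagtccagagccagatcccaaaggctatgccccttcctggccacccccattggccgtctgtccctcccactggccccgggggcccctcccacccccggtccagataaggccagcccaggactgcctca
Plekhb1: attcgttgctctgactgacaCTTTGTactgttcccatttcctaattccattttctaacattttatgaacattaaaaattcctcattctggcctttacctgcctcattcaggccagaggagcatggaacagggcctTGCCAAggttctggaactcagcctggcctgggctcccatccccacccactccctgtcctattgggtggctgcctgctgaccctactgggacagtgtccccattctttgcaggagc
The printed stretches lie at chr4:141244838-141245087 on the plus strand for Arhgef19, chr11:102897201-102897450 on the minus strand for Gfap and chr1:169928689-169928938 on the plus strand for Ccdc190. Those of Aldh3b1, Lcat and Plekhb1 lie on the minus strand at chr19:3929779-3930028, chr8:105943403-105943652 and chr7:100656966-100657215.

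The Arhgef19 promoter held an AP-1 match, TGAATCA, at bases -47 to -41 from the start site and a SOX match, CTTTGT, at -36 to -31. Ccdc190 held the NFI half-site at -212 to -207. Lcat held a SOX match, CATTGT, at -206 to -201. Plekhb1 held an NFI half-site, TGCCAA, at -115 to -110 and a SOX match, CTTTGT, at -230 to -225. The windows of Gfap and Aldh3b1 held none of the 5 letter strings, which says nothing about binding there. Among the 12 promoters, the NFI half-site was in 3 (25%), AP-1 in 2 (16.7%) and STAT in 1 (8.33%). The SOX motif ACAAAG was in 3 (25%) and ACAATG in 2 (16.7%). Among all 21263 promoters of the table, the shares in the same order were 11.5% for the NFI half-site, 6.13% for AP-1, 6.58% for STAT, 14.9% for ACAAAG and 9.35% for ACAATG. A STAT and an AP-1 match shared letters in the promoter of Ugt1a6a, which was counted for each. With 12 promoters, 1 promoter more or fewer moves a share by 8.33 percentage points, so the shares describe these promoters only.

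At the Arhgef19 start, the member at chr4:141244947-141245347 had 15.4, 3.46 and 12.6 CPM in Ogtflox+/Y replicates 2, 4 and 6, against 2.52, 3.15 and 3.37 CPM in Ogtflox-/Y replicates 1, 3 and 5. The Ccdc190 member had 9.38, 2.52 and 9.43 CPM in the Ogtflox+/Y libraries, against 2.13, 1.80 and 2.06 CPM in the Ogtflox-/Y libraries. In both, replicate 4 sat just above the highest control. At the start of Lcat, the enzyme that esterifies cholesterol in lipoproteins, the member had 7.96, 2.05 and 7.98 CPM in Ogtflox+/Y, against 2.59, 2.46 and 2.42 CPM in Ogtflox-/Y. This region also touches Slc12a4, a potassium-chloride cotransporter gene to which it was assigned as the nearest gene. The Aldh3b1 member, at an aldehyde dehydrogenase gene, had 10.6, 2.60 and 9.05 CPM in Ogtflox+/Y, against 1.98, 2.33 and 2.16 CPM in Ogtflox-/Y. The Plekhb1 member had 9.60, 2.05 and 7.72 CPM in Ogtflox+/Y, against 2.59, 2.66 and 2.16 CPM in Ogtflox-/Y. At Lcat and Plekhb1, replicate 4 had the lowest CPM of all 6 libraries.

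Across the 388 regions, the median level was 6.93, 1.61 and 6.08 CPM in Ogtflox+/Y replicates 2, 4 and 6, against 1.45, 1.23 and 1.31 CPM in Ogtflox-/Y replicates 1, 3 and 5. The medians over all regions of chromosomes 1 to 19 were 2.20, 2.28 and 2.15 CPM in Ogtflox+/Y, against 2.44, 2.496 and 2.57 CPM in Ogtflox-/Y. The members were thus below the typical region in replicate 4 and in each control library. They ranged between 2.06 and 36.0 CPM in replicate 2, 0.472 and 7.24 CPM in replicate 4 and 2.03 and 28.9 CPM in replicate 6. The control range ran between 0.0409 and 10.01 CPM. Every member had at least 1 read in every library. All members together held 0.316, 0.0737 and 0.282% of the reads in regions in Ogtflox+/Y, against 0.0741, 0.0564 and 0.0660% in Ogtflox-/Y, a small part of any library.

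**Figure D1:**
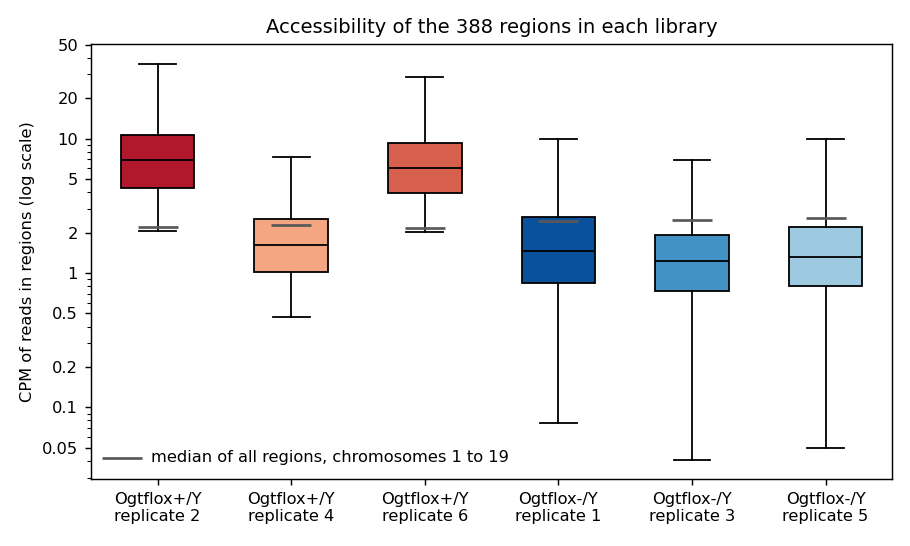
CPM of the 388 member regions on a log axis, with 1 box per library, Ogtflox+/Y in red and Ogtflox-/Y in blue. Boxes span the quartiles with the median as a line, whiskers reach the lowest and highest member, and the grey bar is the median of all regions on chromosomes 1 to 19. Member medians are 6.93 and 6.08 CPM in Ogtflox+/Y replicates 2 and 6, 1.61 CPM in Ogtflox+/Y replicate 4 and 1.23 to 1.45 CPM in the Ogtflox-/Y libraries, and the rule set this split.

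The rule bounded replicate 4 and the control mean only from above, so where replicate 4 fell relative to the controls was not fixed. Both were chosen to be low, however, so their ratio is not free of the choice. The shares over all regions given beside it are not matched to the lower level of the members, where ratios rest on fewer reads. They are a description and carry no test. The median ratio of replicate 4 to the Ogtflox-/Y mean was 1.09 over the members, with quartiles of 0.948 and 1.39, and 0.954 over all regions of chromosomes 1 to 19. With library totals as the scale these medians were 0.903 and 0.789. Replicate 4 lay within the range of the 3 control libraries in 201 members, above all of them in 147 and below all of them in 40. The 147 are 37.9% of the members, beside 31.8% of all regions. Replicate 4 reached at least 2 times the control mean in 42 members (10.8%, beside 5.71% of all regions) and at least 3 times in 11. Those 11 included the Gfap gene end, the start of the phospholipid enzyme gene Gpam and a region 28674 bp from Wt1, a transcription factor gene. The Gpam member had 6.47, 1.97 and 6.96 CPM in Ogtflox+/Y, and its Ogtflox-/Y mean was 0.573 CPM. There replicate 4 lay between the other Ogtflox+/Y libraries and the control mean.

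Replicates 2 and 6 were close to each other in most members. Their levels were within 1.5-fold in 351 of 388. The rule held both above the same bounds, so this closeness is partly set by the choice. The same share over all regions was not computed. Replicate 2 was the higher in 248 members (63.9%), beside 49.4% of all regions. It was at least 2 times replicate 6 in 10 members and the reverse occurred in 0. Each of the 2 was at least 3 times the highest control in 261 members. The control libraries did not split evenly either. Replicate 1 was the highest control in 197 members (50.8%, beside 31.4% of all regions), replicate 5 in 127 and replicate 3 in 64, and replicate 3 was the lowest in 199.

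The same thresholds were applied to other combinations of Ogtflox+/Y libraries. Replicates 2 and 4 without 6 gave 0 regions, and replicates 4 and 6 without 2 gave 1. Replicate 2 alone gave 611 regions, replicate 4 alone 1 and replicate 6 alone 2. A further 688 regions were raised by these thresholds in all 3 Ogtflox+/Y libraries. The 388 depended on the depth measure used for scaling. Scaled by the total reads of each library in place of reads in regions, 254 regions met the rule, of which 176 were among the 388. Without replicate 2, when the conditions that need it are dropped, 571 regions met the rest. Without replicate 4 the count was 1993 and without replicate 6 it was 1942.

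The rule has a sharp edge in a continuous distribution. The smallest of the 4 ratios that the rule requires to reach 3 was under 3.5 in 218 members, at least 5 in 11, and at most 6.30. Another 549 regions with enough reads had a smallest ratio between 2.5 and 3. Just inside were regions nearest to Htr1a, a serotonin receptor gene, at a ratio of 3.001, Snx32 at 3.004 and Slc1a3 at 3.006. Just outside were regions nearest to Lnx1 at 2.996, Szrd1 at 2.995 and Ola1 at 2.992. The Szrd1 region had 14.9, 4.96 and 17.1 CPM in Ogtflox+/Y, against 4.34, 4.09 and 3.82 CPM in Ogtflox-/Y, a profile like that of many members.

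The members of highest level, ranked by the lower of replicates 2 and 6, lay near genes of several kinds. The first lay inside Arhgef10l, at chr4:140657874-140658274, with 36.0, 7.24 and 28.9 CPM in Ogtflox+/Y, against 9.91, 6.87 and 10.01 CPM in Ogtflox-/Y. The second lay inside Capn2, which encodes the catalytic chain of a calpain protease, with 21.1, 5.91 and 20.1 CPM in Ogtflox+/Y, against 8.38, 4.13 and 7.35 CPM in Ogtflox-/Y. At both, replicate 4 fell within the range of the controls. A member 6237 bp from Fxyd3, which encodes a regulator of the sodium pump, had 23.2, 4.57 and 19.9 CPM in Ogtflox+/Y, against 1.75, 2.33 and 2.67 CPM in Ogtflox-/Y. There replicate 4 was above all 3 controls.

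Several of these 10 genes are known from glial cells. The member inside Slc38a3, a glutamine transporter gene, at chr9:107659573-107659973, had 23.5, 4.09 and 19.6 CPM in Ogtflox+/Y, against 5.11, 3.15 and 3.82 CPM in Ogtflox-/Y. The member inside Kcnj10, an inward rectifier potassium channel gene of glia, at chr1:172349871-172350271, had 28.9, 5.35 and 18.9 CPM in Ogtflox+/Y, against 6.48, 5.56 and 4.78 CPM in Ogtflox-/Y. The member 1088 bp from Gpr37l1, a glial receptor gene, had 19.5, 5.04 and 20.8 CPM in Ogtflox+/Y, against 7.62, 4.71 and 5.84 CPM in Ogtflox-/Y. The control libraries had reads at all 3 sites, at levels above their own medians over all regions. The member 16116 bp from Fgfr3, a fibroblast growth factor receptor gene, at chr5:33705208-33705608, had 19.6, 6.22 and 19.1 CPM in Ogtflox+/Y, against 8.31, 3.89 and 6.44 CPM in Ogtflox-/Y. The other 3 of the 10 were 8892 bp from Nat8f2, of an acetyltransferase family, 117745 bp from Nufip1, an RNA-binding protein gene, and 1147 bp from Rfxank, a regulator of MHC class II genes. In these 3 the lower of replicates 2 and 6 was 19.6, 18.5 and 18.4 CPM.

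**Figure D2:**
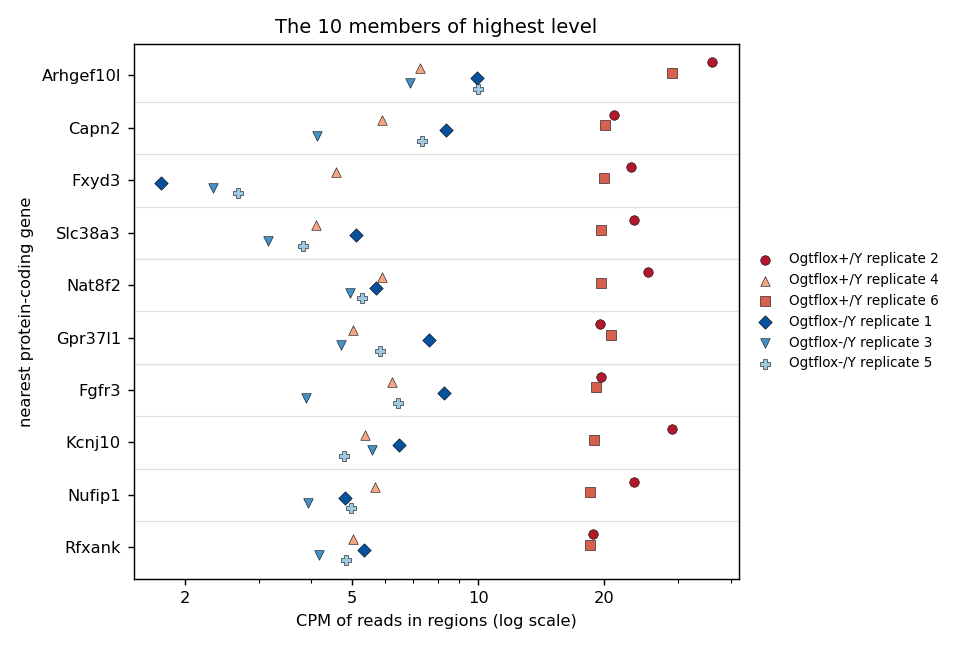
CPM on a log axis in each of the 6 libraries for the 10 members of highest level, labelled by nearest protein-coding gene. Ogtflox+/Y replicates 2 and 6 lie at 18.4 to 36.0 CPM, Ogtflox+/Y replicate 4 at 4.09 to 7.24 CPM and the Ogtflox-/Y libraries at 1.75 to 10.01 CPM, with replicate 4 above the control range at Fxyd3, Nat8f2 and Nufip1 and inside it at the other genes.

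Of the members, 344 (88.7%, beside 90.3% of all regions) lay within 100000 bp of a protein-coding gene, and 309 genes were nearest to them. Of these genes, 275 had 1 member, 33 had 2 and 1 had 3. The gene with 3 was Mogat1, which encodes an acyltransferase of triglyceride synthesis, and its strongest member had 11.1, 2.99 and 13.5 CPM in Ogtflox+/Y, against 4.57, 2.00 and 2.87 CPM in Ogtflox-/Y. Genes with 2 members included Slc39a14, a metal ion transporter gene, Fxyd3, Nat8f2 and Gfap. The stronger member at Slc39a14 had 25.2, 4.80 and 16.7 CPM in Ogtflox+/Y, against 4.50, 2.37 and 3.27 CPM in Ogtflox-/Y. Members were spread over all 19 chromosomes, with 9 to 33 on each, and 57 lay within 10000 bp of another member. Nearly all regions share 1 width of 401 bp, and 19 members were wider, up to 789 bp.

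Position was not used by the rule. Of the 388 regions, 27 lay at a gene end, meaning within 1000 bp of a bound of a protein-coding gene (6.96%, 95% Wilson interval 4.83 to 9.94%, which treats regions as independent and covers counting error only). Another 130 lay inside a gene (33.5%) and 231 between genes (59.5%). Over all regions of chromosomes 1 to 19 the shares were 11.6%, 56.6% and 31.9%. Among the 688 regions raised in all 3 Ogtflox+/Y libraries they were 14.4%, 52.0% and 33.6%, and among the 611 raised in replicate 2 alone 5.07%, 43.0% and 51.9%. These shares describe counts of regions and were not tested against each other. The share within 1000 bp of a start site was 8.18% of the 379 members on chromosomes that the promoter table covers, beside 11.1% of all regions.

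**Figure D3:**
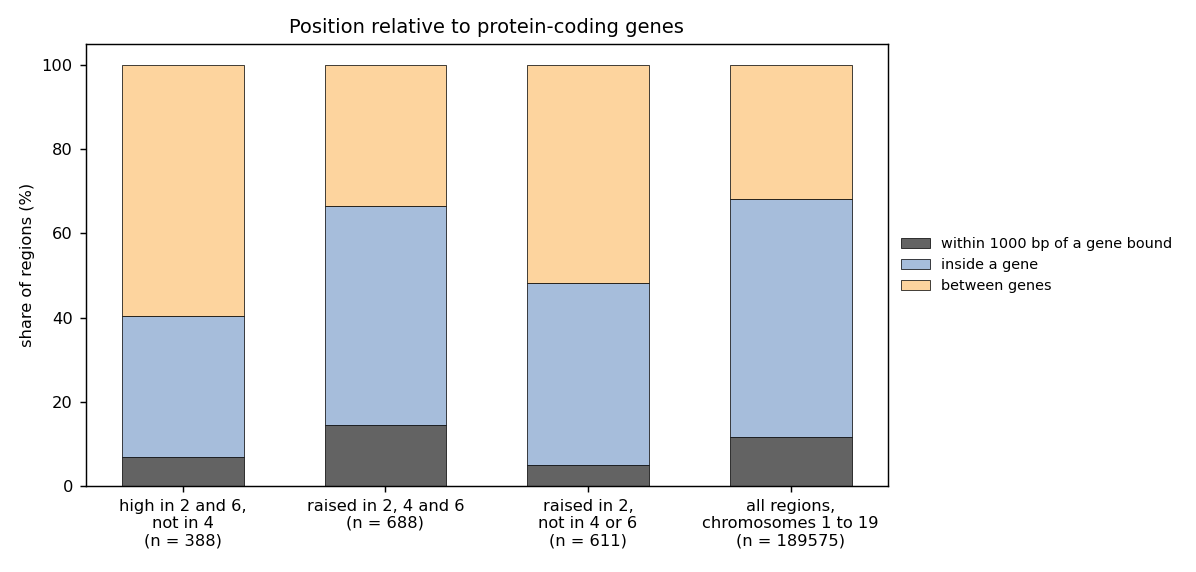
Share of regions in percent within 1000 bp of a gene bound, inside a gene and between genes, for the 388 members, for regions raised in all 3 Ogtflox+/Y libraries or in Ogtflox+/Y replicate 2 alone, and for all regions on chromosomes 1 to 19. Regions between genes make up 59.5% of the members and 31.9% of all regions.

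In the comparison of genotypes over all 6 libraries, edgeR's quasi-likelihood test with Benjamini-Hochberg adjustment called 15.4% of 191693 tested regions higher in Ogtflox+/Y and 12.7% lower. The balance turned with the scaling, since 29589 higher and 24251 lower regions with TMM became 22571 higher and 33407 lower with reads in regions alone. Of the 388 members, 374 passed the filter on low counts, and 374 were called higher and 0 lower. Their median log2 fold change was 1.89, within 1.32 to 4.52, beside -0.0063 over all regions tested. The rule used the same contrast, so nothing is read from this count. The call changed with the group that held replicate 2. Members were chosen for a high replicate 2, so placing it with the controls works against a call by construction. With that library moved to Ogtflox-/Y as its title has it, 0 members were called at an adjusted p under 0.05 and 0 at an unadjusted p under 0.05. Over all regions that grouping called 0 in either direction after adjustment, while 9887 were higher and 13148 lower at an unadjusted p under 0.05. Without replicate 2, 361 of 374 tested members were called higher. Members were also chosen for a high replicate 6, which stayed in that fit, so this count favours a call by construction. DESeq2 called 302 and found 383 at an unadjusted p under 0.05.

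The markers Gfap, Aqp4 and Sox9 were examined at every region within 5000 bp. Gfap had 5 regions, 2 of them members. The member over its start, at chr11:102897120-102897520, had 10.3, 2.83 and 12.2 CPM in Ogtflox+/Y, against 0.686, 1.06 and 0.755 CPM in Ogtflox-/Y. It covers the Gfap promoter printed above. The member 1170 bp from the gene, at chr11:102898370-102898770, had 15.4, 3.39 and 16.0 CPM in Ogtflox+/Y, against 1.60, 1.06 and 1.71 CPM in Ogtflox-/Y. At both, replicate 4 was above every control, at 3.40 and 2.32 times the control mean.

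The other 3 Gfap regions did not follow the rule. The one at chr11:102892929-102893329, inside the gene, had 8.10, 5.67 and 6.14 CPM in Ogtflox+/Y, against 4.27, 3.40 and 2.72 CPM in Ogtflox-/Y. All Ogtflox+/Y libraries were above all Ogtflox-/Y libraries there, and it rose by 1.07 ± 0.22 (SE) on the log2 scale, with an adjusted p of 0.00188 from edgeR. The call was lost in the grouping by title, with a log2 fold change of 0.39 and an adjusted p of 0.693, within 0.000313 to 0.693 over its alternatives. The one at chr11:102888124-102888524 had 12.9, 11.3 and 17.7 CPM in Ogtflox+/Y, against 11.1, 11.0 and 8.96 CPM in Ogtflox-/Y. It rose by 0.55 ± 0.17 (SE) on the log2 scale, with an adjusted p of 0.0199 from edgeR. That call was lost in the grouping by title (adjusted p = 0.458), without Ogtflox+/Y replicate 6 (0.121), without Ogtflox-/Y replicate 3 (0.0566) and without Ogtflox-/Y replicate 5 (0.110), within 0.00178 to 0.458 over its alternatives. The fifth, 3662 bp beyond the start, had 14.2, 13.8 and 11.3 CPM in Ogtflox+/Y, against 16.3, 14.7 and 14.0 CPM in Ogtflox-/Y, and a log2 fold change of -0.09 with an SE of 0.13 and an adjusted p of 0.663 from edgeR.

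Aqp4 had 4 regions, all overlapping the gene on chromosome 18, and none met the rule, with smallest ratios of 1.71, 2.48, 2.89 and 1.99 along the chromosome. The strongest, at chr18:15405103-15405503, had 10.5, 3.15 and 9.12 CPM in Ogtflox+/Y, against 2.36, 1.92 and 2.31 CPM in Ogtflox-/Y. Replicates 2 and 6 were the highest and replicate 4 lay above the controls, as it did at the other 3. All 4 rose, with log2 fold changes of 1.95, 1.64, 1.93 and 2.10 and edgeR adjusted p of 0.00113, 0.00281, 0.000386 and 0.000185. The calls held with each library left out and with DESeq2, and were lost in the grouping by title, where the adjusted p were 0.766, 0.611, 0.733 and 0.550 (lowest over the alternatives 1.07e-08).

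Sox9 had 3 regions and no member. The strongest, at chr11:112781939-112782339, had 14.8, 8.27 and 13.4 CPM in Ogtflox+/Y, against 9.60, 8.72 and 10.3 CPM in Ogtflox-/Y. Replicates 2 and 6 were again the highest, and replicate 4 was close to the lowest control. Its log2 fold change was 0.48 ± 0.18 (SE), with an adjusted p of 0.0568 from edgeR, and without replicate 4 it was 0.69 (adjusted p = 0.00110, within 0.00110 to 0.955 over its alternatives). At the other 2 Sox9 regions the groups overlapped or the controls were higher, with log2 fold changes of 0.03 and -0.19 and edgeR adjusted p of 0.921 and 0.461.

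**Figure D4:**
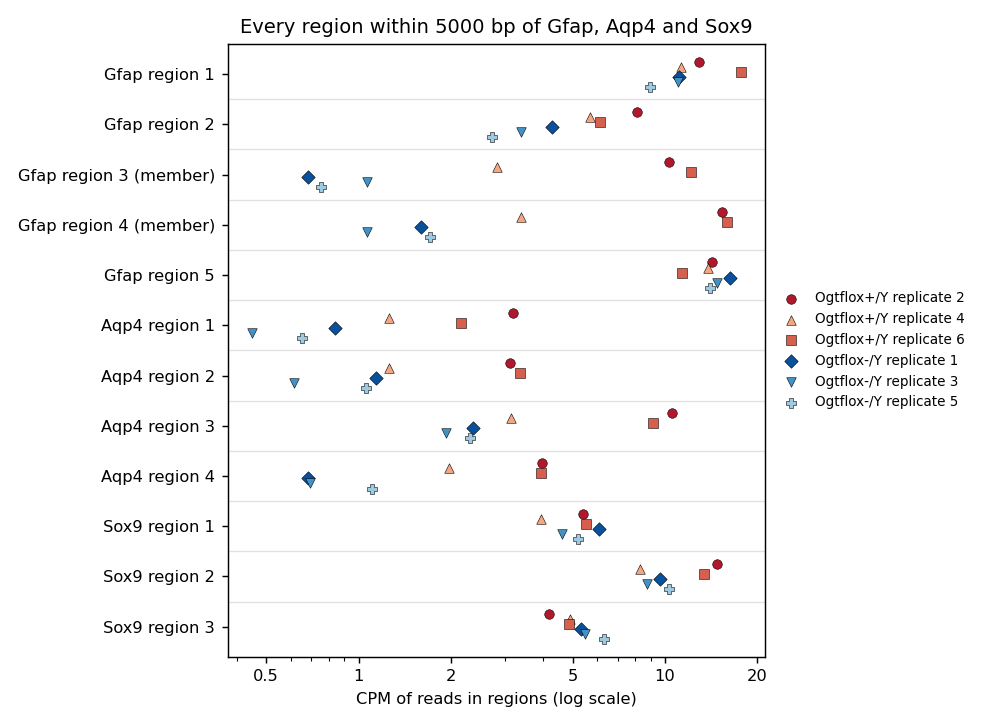
CPM on a log axis in each of the 6 libraries at every region within 5000 bp of Gfap, Aqp4 and Sox9, numbered along the chromosome, with the 2 members marked. Ogtflox+/Y replicates 2 and 6 stand at 10.3 to 16.0 CPM at both Gfap members and Ogtflox+/Y replicate 4 at 2.83 and 3.39 CPM, with every Ogtflox-/Y library at 1.71 CPM or lower, while at Gfap region 5 the libraries of both groups mix.

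Genes of 11 cell type lists were then counted as nearest genes of members, within 100000 bp. Astrocyte genes were nearest to 6 members (1.55%, beside 0.122% of all regions of chromosomes 1 to 19). Besides Fgfr3 and both Gfap regions these were at Atp1b2, Slc1a3 and Acsbg1. At the end of Atp1b2, a sodium pump subunit gene, the member had 12.6, 3.94 and 12.2 CPM in Ogtflox+/Y, against 4.73, 3.31 and 3.52 CPM in Ogtflox-/Y. The one 70373 bp from Slc1a3, a glial glutamate transporter gene, had 8.32, 1.81 and 5.44 CPM in Ogtflox+/Y, against 2.44, 0.777 and 1.16 CPM in Ogtflox-/Y. The one inside Acsbg1, an acyl-CoA synthetase gene, had 3.70, 0.787 and 3.04 CPM in Ogtflox+/Y, against 0.457, 0.0818 and 0.604 CPM in Ogtflox-/Y, where the control values rest on 2 to 12 reads. Replicate 4 was within the control range at Atp1b2 and Slc1a3 and above it at Acsbg1. The most accessible region within 5000 bp of a gene did not always follow its member. That of Fgfr3 had 3.84, 4.96 and 3.74 CPM in Ogtflox+/Y, against 8.84, 7.12 and 6.09 CPM in Ogtflox-/Y. That of Acsbg1 had 6.18, 7.64 and 5.44 CPM in Ogtflox+/Y, against 10.6, 9.37 and 7.35 CPM in Ogtflox-/Y. At such regions, replicates 2 and 6 were each above the other 4 libraries in 10 of the 22 astrocyte genes, Atp1b2 among them. The same order held in 5 of 11 reactive astrocyte, 4 of 13 neuronal, 3 of 10 GABAergic and 2 of 6 oligodendrocyte precursor genes. It held in 2 of 18 oligodendrocyte, 1 of 20 dopaminergic, 1 of 15 endothelial and mural and 1 of 13 microglial genes. For ependymal genes it was 1 of 5 and for glutamatergic genes 0 of 7. The share over the strongest regions of all genes was not computed.

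The other lists were nearest to few members, and most of them hold few regions. Genes of reactive astrocytes, a state of astrocytes after injury, were nearest to 2 members (0.515%, beside 0.0427% of all regions). Inside Cd44, a hyaluronan receptor gene, the member had 6.47, 0.945 and 3.55 CPM in Ogtflox+/Y, against 0.991, 0.859 and 1.31 CPM in Ogtflox-/Y. The one 42334 bp from Socs3, an inhibitor of cytokine signalling, had 2.56, 0.709 and 2.47 CPM in Ogtflox+/Y, against 0.686, 0.736 and 0.906 CPM in Ogtflox-/Y. Oligodendrocyte genes were nearest to 1 member, 4931 bp from Sox10 (0.258%, beside 0.0596% of all regions), and ependymal genes to 1, at the end of Ccdc153 (0.258%, beside 0.0116%). Genes of oligodendrocyte precursors, microglia, endothelial and mural cells, neurons in general, dopaminergic, GABAergic and glutamatergic neurons were nearest to 0 members. These genes were nearest to 0.252% of all regions for the neuronal list, 0.145% for the dopaminergic list and 0.0285 to 0.0612% for the other 5, so a count of 0 among 388 is close to the background. Oligodendrocyte genes were nearest to 15 of the 611 regions raised in replicate 2 alone (2.45%, beside the same 0.0596% of all regions).

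Marker levels were read over all regions within 5000 bp of the list genes, member or not. Replicates 2 and 6 were each above the other 4 libraries in 10.5% of all regions of chromosomes 1 to 19. The share was 36.5% for the astrocyte list (66 of 181 regions), 29.1% for the reactive astrocyte list (16 of 55) and 21.7% for the oligodendrocyte list (20 of 92). It was 8.12% for the neuronal list (32 of 394) and 12.2% for the dopaminergic list (21 of 172). The remaining lists had 0 of 33 regions for glutamatergic neurons, 8.33% for microglia, 9.26% for endothelial and mural cells, 14.4% for oligodendrocyte precursors, 17.5% for GABAergic neurons and 28.6% of only 21 regions for ependymal cells. Every member has this order of libraries through the choice, and the shares include members. There were 4 in the astrocyte list, 2 in the reactive astrocyte list, 1 in the oligodendrocyte list and 1 in the ependymal list. Shares without them were not computed.

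Summed over its regions, the astrocyte list had 994, 768 and 994 CPM in Ogtflox+/Y replicates 2, 4 and 6, against 841, 775 and 797 CPM in Ogtflox-/Y. With the 4 members among these regions left out, the sums were 952, 757 and 951 CPM in Ogtflox+/Y, against 833, 770 and 791 CPM in Ogtflox-/Y. Replicates 2 and 6 were above the other 4 libraries, with or without the members. Replicate 4 was below all 3 controls in CPM, while with TMM-scaled library sizes its ratio to the control mean was 0.996, within the control range. Scaled by library totals, the ratios to the control mean were 1.09, 0.789 and 1.22 in Ogtflox+/Y replicates 2, 4 and 6, in place of 1.24, 0.955 and 1.24, and replicates 2 and 6 were still the highest. The median over all regions moved with that scaling too, to 0.785, 0.789 and 0.893 of the control mean in replicates 2, 4 and 6, in place of 0.889, 0.954 and 0.903. In the genotype comparison, 50 of 176 tested astrocyte-list regions rose (28.4%, beside 15.4% of all regions tested) and 11 fell (6.25%, beside 12.7%), with a median log2 fold change of 0.25, beside -0.0063 over all regions tested. With the 4 members left out, 46 of 172 rose (26.7%) and 11 fell, with a median of 0.24. The grouping by title removed these calls, as it did every call over all regions. The list median was then 0.06, or 0.04 without the members. A rise was not particular to this list. By genotype label, 25 of 57 GABAergic regions rose (43.9%) and 1 fell, with a median of 0.42. The share that rose was 31.5% for reactive astrocytes and 29.7% for oligodendrocytes, and 10 regions fell in each. It was below the astrocyte share in the remaining lists, between 9.09% for glutamatergic neurons and 4 of 21 regions for ependymal cells. The grouping by title removed those calls too.

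The reactive astrocyte list summed to 372, 322 and 366 CPM in Ogtflox+/Y, against 317, 298 and 294 CPM in Ogtflox-/Y. The oligodendrocyte list set replicate 2 apart alone, with 552, 401 and 414 CPM in Ogtflox+/Y, against 451, 450 and 437 CPM in Ogtflox-/Y. At Mog, a myelin glycoprotein gene singled out after its values were seen, the strongest region had 5.62, 0.945 and 0.823 CPM in Ogtflox+/Y, against 0.381, 0.450 and 0.704 CPM in Ogtflox-/Y. The library with the disputed label thus differed from replicate 6 at this list.

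The neuronal list summed to 1973, 2176 and 2247 CPM in Ogtflox+/Y, against 2248, 2293 and 2173 CPM in Ogtflox-/Y, with replicate 2 the lowest in CPM but within the control range with TMM-scaled sizes. The dopaminergic list summed to 1196, 1255 and 1120 CPM in Ogtflox+/Y, against 1102, 1611 and 1433 CPM in Ogtflox-/Y. For 3 of its 20 genes the strongest region is given first, and each was accessible in every library. That of Pitx3, a homeobox gene needed by midbrain dopamine cells, had 63.1, 53.6 and 56.1 CPM in Ogtflox+/Y, against 54.7, 51.0 and 54.3 CPM in Ogtflox-/Y. That of Th, the gene of tyrosine hydroxylase, had 224, 181 and 164 CPM in Ogtflox+/Y, against 178, 397 and 261 CPM in Ogtflox-/Y. This 1 region was thus a large part of the dopaminergic sum in every library. Its spread among the Ogtflox-/Y libraries carried into the spread of that sum. That of Slc6a3, the dopamine transporter gene, was far lower, with 4.19, 4.65 and 4.12 CPM in Ogtflox+/Y, against 4.04, 4.01 and 4.43 CPM in Ogtflox-/Y. At these 3 genes replicates 2 and 6 were not set apart from the rest, other than at Pitx3, where they were the highest by a small margin. The GABAergic list summed to 411, 390 and 379 CPM in Ogtflox+/Y, against 281, 347 and 292 CPM in Ogtflox-/Y, so that replicate 4 was above the controls along with replicates 2 and 6, though with library totals it was within the control range. The glutamatergic list summed to 119, 152 and 151 CPM in Ogtflox+/Y, against 167, 168 and 172 CPM in Ogtflox-/Y. No list region had 0 reads in any library, but the lowest counts per list were 1 to 5 reads, near the 3-read floor. Some list genes had no region, with 13 of 16 microglial, 11 of 12 reactive astrocyte and 15 of 16 endothelial and mural genes covered. The lack of zeros therefore does not show that markers of each list were detected.

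The microglial list summed to 149, 139 and 136 CPM in Ogtflox+/Y, against 162, 157 and 159 CPM in Ogtflox-/Y. The endothelial and mural list summed to 229, 223 and 228 CPM in Ogtflox+/Y, against 246, 251 and 262 CPM in Ogtflox-/Y. Both lists were lower in every Ogtflox+/Y library, replicate 4 included. Oligodendrocyte precursor genes summed to 324, 332 and 317 CPM in Ogtflox+/Y, against 320, 334 and 340 CPM in Ogtflox-/Y. Ependymal genes summed to 138, 117 and 127 CPM in Ogtflox+/Y, against 132, 121 and 124 CPM in Ogtflox-/Y. None of these 4 lists separated replicates 2 and 6 from the rest in this scaling, though with TMM-scaled library sizes the ependymal and GABAergic sums were highest in replicates 2 and 6, and with library totals the GABAergic sum was too. With TMM-scaled sizes the microglial sum of replicate 2 and the endothelial and mural sums of replicates 2 and 6 fell within the control range. Whether nuclei of other cell types in the sorted fraction account for the 388 regions was not tested. The values above show only which marker sums moved with replicates 2 and 6.

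**Figure D5:**
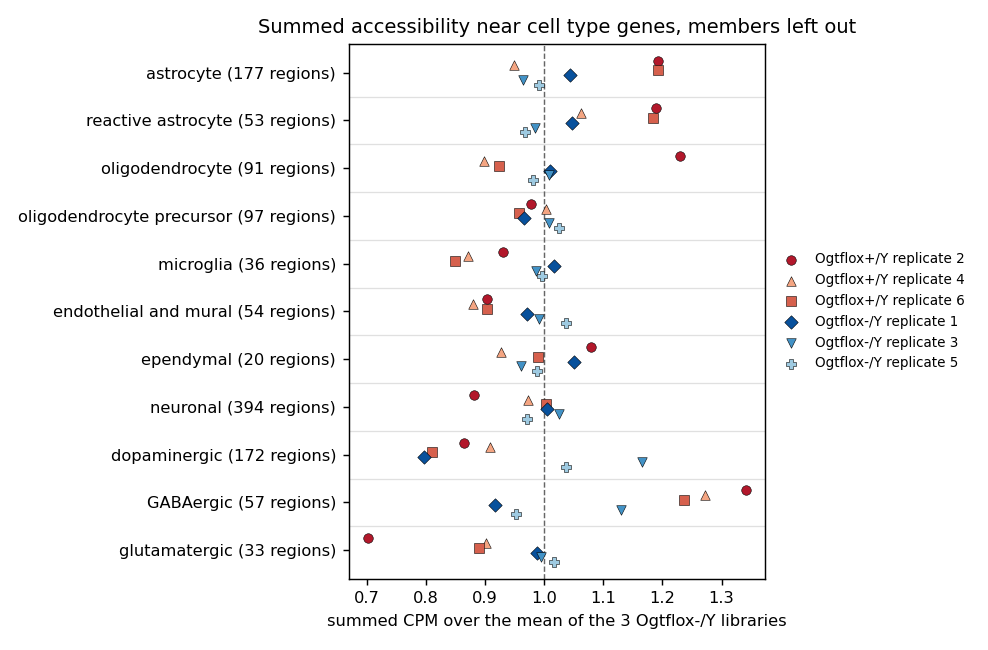
Summed CPM over regions within 5000 bp of the genes of each list, members left out, divided by the mean of the 3 Ogtflox-/Y libraries (dashed line at 1), for each of the 6 libraries. Ogtflox+/Y replicates 2 and 6 are both at 1.19 for the astrocyte list with Ogtflox+/Y replicate 4 at 0.949, while for the oligodendrocyte list replicate 2 is at 1.23 and the other Ogtflox+/Y libraries are at 0.899 and 0.924.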

How the data were processed

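Counts came from 6 libraries over 193148 shared regions. The deposited tables hold, per the file headers, counts of reads, RPKM and a score by region. The deposited counts are whole numbers and were used as they stand. The authors' RPKM values gave the library totals, and the authors' score was not used. Tools listed in the submitters' processing notes are BWA, MACS2, Picard, SAMtools 1.9, Trimmomatic and FastQC, with build mm10. What each did, how reads were counted or shifted and how regions were defined is not given in the sources used here.

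CPM is the count per 1000000 reads in regions. Counts were tested with edgeR 4.0.16 in R 4.3.3 (TMM scaling, the package's filter on low counts, group by genotype label as the only term, Benjamini-Hochberg over 191693 regions), and the script was tested on simulated data. DESeq2 1.42.0, other scalings, thresholds and distances, each library left out in turn and the grouping by title were alternatives. P-values measure only the spread between libraries. The p-values of single marker regions are adjusted over all regions tested. Genes are the 21900 protein-coding symbols of the RefSeq table for GRCm38.p6 and all 145 list entries matched. Exons and introns were not separated, and a region may act on a gene other than the nearest. Named genes are the regions of Gfap, Aqp4 and Sox9, the 10 strongest members, the 5 genes with most members (ties by level), up to 3 members per list and the 3 regions on each side of the threshold. Others were chosen after their values were seen. The members and lists were chosen with earlier results of these data known. Intervals and the 3-read floor cover counting error only.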

Additional observations from a re-analysis of the deposited data

Results flagged for a closer look

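Outside chromosomes 1 to 19, which the rule covers, 7 of 3564 regions of chromosome X and 0 of 9 of chromosome Y met the same thresholds. They were set apart because they carry the pattern in data that the comparisons above did not use. Their nearest genes were Nyx, Dmd, Kcne1l, Asb9, Zcchc12, H2al1j and Rnf138rt1. The region inside Dmd, the dystrophin gene, had 3.55, 1.18 and 3.99 CPM in Ogtflox+/Y replicates 2, 4 and 6, against 1.52, 0.900 and 0.704 CPM in Ogtflox-/Y replicates 1, 3 and 5. The region inside Asb9 had 2.63, 0.394 and 2.66 CPM in Ogtflox+/Y, against 0.381, 0.0818 and 0.302 CPM in Ogtflox-/Y. These values were chosen by the thresholds and carry no test.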

How the results depend on the processing

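The number of members was 388. It was 254 with library totals as the scale, 1944 at a fold of 2, 11 at a fold of 5 and 227 with a minimum of 5 CPM, and between 341 and 1993 with a library left out. With TMM-scaled library sizes it was 548, with a minimum of 1 CPM 434 and with the highest control in place of the mean 261. Calls over all regions ran between 19046 and 30038 higher and between 14719 and 24959 lower with a library left out. Without the TMM factor 22571 were higher and 33407 lower. DESeq2 called 14862 lower, and the grouping by title 0 higher and 0 lower. Members called higher ran between 328 and 388 with a library left out and were 0 in the grouping by title. The share of members at gene ends was 13.4% within 3000 bp (17.6% of all regions) and 18.2% at a fold of 5. Within 10000 bp, 1 member lay near a reactive astrocyte gene. With regions up to 50000 bp from list genes, the ratio of Ogtflox+/Y to Ogtflox-/Y mean sums was 1.01 for microglia (0.884 within 5000 bp), 0.995 for endothelial and mural cells (0.896), 0.920 for dopaminergic (0.861) and 1.10 for GABAergic neurons (1.28). The causes were not tested. TMM and library-total scaling of list sums were chosen after seeing the data. No paired analysis was possible because the groups share no replicate number. Controls at the weakest members rest on 1 read or a few, so their folds are imprecise.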
